A study of Rattus norvegicus with 12 samples.

Results

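The genes described here encode the tracks and motors of axonal transport: alpha, beta and gamma tubulins, kinesin heavy chains (Kif) and kinesin light chains (Klc), and the subunits of cytoplasmic dynein (Dync, Dynl) and of its partner dynactin (Dctn). They were chosen by gene symbol alone, as every symbol that begins with Kif, Klc, Tuba, Tubb, Tubg, Dync, Dynl or Dctn in the required form. The rule found 67 of the 17128 symbols of the series, 67 of 16884 in the table of the nerve injury and 66 of 16865 in the table of the shRNA vectors.

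The study examined the fifth lumbar dorsal root ganglion (L5 DRG), which holds the cell bodies of primary sensory neurons, in Sprague Dawley rats of 5 to 6 weeks after spinal nerve ligation (SNL), in which the nerve leaving that ganglion is tied off. RNA was sequenced from 12 libraries in 4 groups of 3: the ligated side on day 14 (SNL), the intact contralateral side (Control), and SNL ganglia injected 7 days before the ligation with adeno-associated virus carrying Neat1 shRNA or control shRNA, a scrambled sequence. The labels name male rats, while the methods name both sexes for all experiments. SNL with either vector therefore differs from SNL alone by an injection into the ganglion, and both shRNA groups carry the injury. The vectors were meant for the sensory neurons, while the RNA came from whole ganglia with all their other cells.

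For each comparison the authors deposited 1 FPKM per group over its 3 libraries. FPKM is the fragments counted for a gene, scaled to its transcript length and to the depth of the library. No spread between rats is thus known, and no difference below was tested here. The authors' own test columns were not used, and the sequencing depth is unknown. A member counted as measured at 1 FPKM or more in at least 1 of the 2 groups, and as higher or lower where the ratio was 1.5 or more, or 1/1.5 or less. Ratios are SNL over Control, or Neat1 shRNA over control shRNA. The 2 tables were assembled and normalised separately, so the 4 values of a gene are set side by side, and only the first pair and the last pair share a scale.

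Microtubules are hollow polymers of alpha and beta tubulin dimers, nucleated by gamma tubulin. In axons they lie with their fast-growing ends pointing away from the cell body. Most kinesins walk outward along them with vesicles, mitochondria and RNA, whereas cytoplasmic dynein, with dynactin, carries injury signals and used cargo back to the cell body. A different set of kinesins builds the mitotic spindle and completes cytokinesis in dividing cells, and a neuron that no longer divides has little use for them as spindle motors.

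Of the 60 members measured in the injury table, 14 were higher (23.3%) and 12 lower (20%) in SNL, and 34 lay within 1.5-fold. Over all 11416 measured symbols, 19.2% were higher and 16.2% lower. Of the 14 higher members 7 are mitotic kinesins that passed the filter through the SNL group alone. With 1 FPKM required in both groups, a setting added after seeing the data, 7 of 49 members were higher and 10 lower, against 16.1% higher and 14.4% lower over 10533 symbols. On the scale of log2(FPKM + 1), where differences of weakly expressed genes come out smaller, the median log2 ratio was -0.10 over the measured members (-0.22 over the 49) and 0.01 over all measured symbols. The other 7 members were under 1 FPKM in both groups. The members did not move as a block, as the tubulins, the axonal kinesins and the dynein light chains each held members called in both directions.

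**Figure D1:**
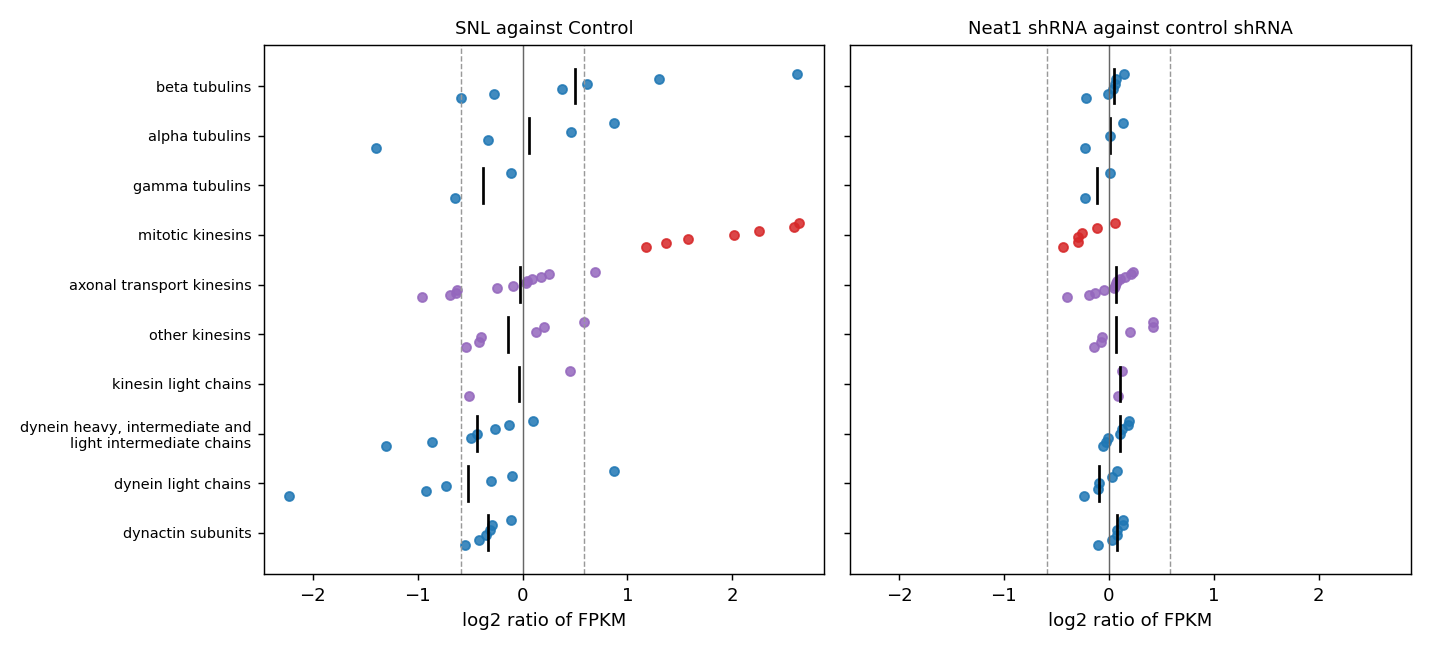
The log2 ratio of FPKM for each measured member (points) is drawn by role, for SNL against Control on the left and the group labelled Neat1 shRNA against control shRNA on the right. Black bars are medians over the measured members of a role (none is drawn for the mitotic kinesins) and dashed lines mark a 1.5-fold difference. Kif1bp and the row that joins Kif22 with Maz belong to no role and are not drawn. After SNL the ratios spread widely, whereas every point of the shRNA comparison lies inside the dashed lines.

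The beta tubulins showed the widest range among the tubulins. Tubb6, a beta tubulin of low abundance in most tissues (rn5 chr18:62314820-62324460), stood at 66.5 FPKM in SNL and 10.9 FPKM in Control. Its ratio of 6.12 (log2 ratio 2.61) was the highest of the tubulins. In the shRNA table it was at 64.0 FPKM with Neat1 shRNA and 74.4 FPKM with control shRNA. The level in both vector-treated groups was thus near that of SNL, with the limit that the tables have separate scales.

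Tubb2a and Tubb2b, 2 near-identical neuronal beta tubulins that the authors' assembly joined in a single row (chr17:33335688-33391837), had 1243 FPKM in SNL and 505 FPKM in Control, a ratio of 2.46 (log2 ratio 1.299). Reads of the pair cannot be divided between them, so which of them differed is uncertain. The joined row stood at 1119 FPKM with Neat1 shRNA and 1121 FPKM with control shRNA, a ratio of 0.998. A separate small row of Tubb2a, in the injury table alone and inside the same locus, held 0.581 FPKM in SNL and 0.425 FPKM in Control.

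Tubb3, the neuron-specific beta tubulin used to stain sensory neurons (chr19:66931879-66940930), was the most abundant member in SNL. It had 3689 FPKM in SNL and 2403 FPKM in Control, a ratio of 1.54, and it ranked 3 among all symbols in SNL and 10 in Control. Tubb5, a broadly expressed beta tubulin, had 981 FPKM in SNL and 757 FPKM in Control, a ratio of 1.296 that was within the limit. In the shRNA table Tubb3 stood at 3205 FPKM with Neat1 shRNA and 3049.9 FPKM with control shRNA, and Tubb5 at 924 FPKM with Neat1 shRNA and 888 FPKM with control shRNA. In Control, unlike SNL, the joined alpha tubulin row described below was above Tubb3.

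The remaining beta tubulins had ratios below 1, 1 of them past the limit. Tubb4b, another broadly expressed member, had 524 FPKM in SNL and 787 FPKM in Control, a ratio of 0.666 just past the limit. Tubb4a, abundant in the adult nervous system, had 296 FPKM in SNL and 357 FPKM in Control, a ratio of 0.828. Tubb4b and Tubb4a stood at 429 and 249.9 FPKM with Neat1 shRNA, and at 389 and 243 FPKM with control shRNA.

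The composition of the beta tubulin pool therefore differed while its sum was 1.41 times as large in SNL (6800 FPKM in SNL and 4821 FPKM in Control). The joined Tubb2a and Tubb2b row made up 18.3% of the beta tubulin FPKM in SNL and 10.5% in Control, and Tubb6 0.979% in SNL and 0.226% in Control. Tubb4b made up 7.71% in SNL and 16.3% in Control, and Tubb4a 4.35% in SNL and 7.41% in Control. Tubb3 held about the same part of the pool, 54.2% in SNL and 49.8% in Control. The level of Tubb2a and Tubb2b over that of Tubb4b was 2.37 in SNL and 0.642 in Control, so the order of the pair was reversed.

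**Figure D2:**
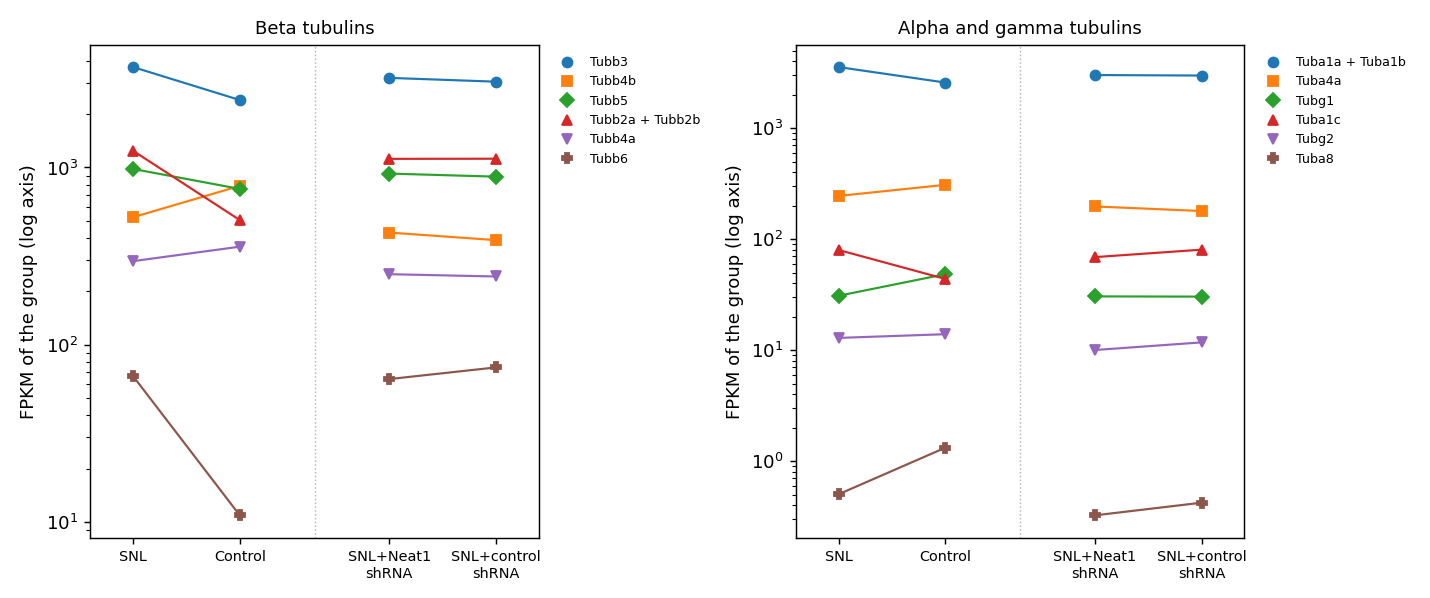
FPKM of the tubulins that reached 1 FPKM in a group (log axis) in SNL and Control and, right of the dotted line, in the SNL groups labelled Neat1 shRNA and control shRNA, with 1 point per group and lines joining the values of one gene within one table. Tubb6 and the joined Tubb2a and Tubb2b row are higher in SNL, Tubb4b and Tubg1 lower, and the lines of the shRNA table run nearly level.

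Among the alpha tubulins, the joined row of Tuba1a and Tuba1b carried most of the signal. These near-identical genes, the main alpha tubulins of neurons, had 3552 FPKM in SNL and 2575 FPKM in Control, a ratio of 1.38 within the limit. Tuba1c, a further close relative, had 80.0 FPKM in SNL and 43.9 FPKM in Control, a ratio of 1.82. Since reads could be shared among the 3 genes, the values of the joined row and of Tuba1c are both uncertain. The same holds for the share of the joined row given below. The rows of Tuba1a, Tuba1b and Tuba1c lie on chromosomes X and 2 of rn5, whereas RefSeq places all of them on chromosome 7 of GRCr8, a later assembly. For every other member with a RefSeq entry the chromosome was the same.

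Tuba4a, an alpha tubulin whose gene does not encode the usual terminal tyrosine, had 245 FPKM in SNL and 309 FPKM in Control, a ratio of 0.794. The Tuba1a and Tuba1b row made up 91.6% of the alpha tubulin FPKM in SNL and 87.9% in Control, and Tuba4a 6.32% in SNL and 10.5% in Control. Tuba8 was close to the measuring limit, with 0.504 FPKM in SNL and 1.32 FPKM in Control, and passed the filter only through the Control group. Tuba3a and Tuba3b were at or near 0 in all 4 groups. Summed over the list, alpha tubulin FPKM was 3877 in SNL and 2929 in Control, a ratio of 1.32.

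Tubg1, the gamma tubulin that nucleates microtubules in most cells (chr10:88829360-88835951), had 30.9 FPKM in SNL and 48.4 FPKM in Control, a ratio of 0.640. It stood at 30.5 FPKM with Neat1 shRNA and 30.4 FPKM with control shRNA. Tubg2, its close paralogue, had 12.9 FPKM in SNL and 13.9 FPKM in Control, a ratio of 0.926. Only the more abundant gamma tubulin was past the limit.

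The kinesins of axonal transport were 12 measured members, of which 1 was higher, 4 were lower and 7 lay within 1.5-fold in SNL. Over all measured symbols 19.2% were higher and 16.2% lower. The median log2 ratio of FPKM + 1 of these kinesins was -0.03, against 0.01 over all symbols. Kinesin-1, the main motor of fast outward transport, has 3 heavy chains that differed from each other. Kif5b, its ubiquitous form (chr17:51875622-51913646), had 62.3 FPKM in SNL and 121 FPKM in Control, a ratio of 0.515. Kif5a, a neuronal form, had 181 FPKM in SNL and 278 FPKM in Control, a ratio of 0.650. Kif5c, the other neuronal form, had 135 FPKM in SNL and 114 FPKM in Control, a ratio of 1.19. Kif5c was therefore above Kif5b in SNL and slightly below it in Control, with Kif5c over Kif5b at 2.17 in SNL and 0.939 in Control.

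In the shRNA table the order of SNL was seen in both groups. Kif5a stood at 166 FPKM with Neat1 shRNA and 149 FPKM with control shRNA, Kif5c at 107 FPKM with Neat1 shRNA and 99.5 FPKM with control shRNA, and Kif5b at 63.7 FPKM with Neat1 shRNA and 61.5 FPKM with control shRNA. Kif5c over Kif5b was 1.69 with Neat1 shRNA and 1.62 with control shRNA.

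Among the kinesin-3 motors, the pair Kif1b and Kif1c went opposite ways. Kif1b, which carries synaptic vesicle precursors and mitochondria, had 100.1 FPKM in SNL and 161 FPKM in Control, a ratio of 0.620. Kif1c, which moves dense-core vesicles and integrins, had 24.99 FPKM in SNL and 15.4 FPKM in Control, a ratio of 1.62, and was the sole higher member of this list. The level of Kif1b over Kif1c was 4.003 in SNL and 10.4 in Control. In the shRNA table Kif1b had 84.7 FPKM with Neat1 shRNA and 80.1 FPKM with control shRNA, and Kif1c had 34.3 FPKM with Neat1 shRNA and 37.6 FPKM with control shRNA.

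Kif21b, a motor that also slows microtubule growth, had 4.55 FPKM in SNL and 7.08 FPKM in Control, a ratio of 0.642. The kinesin-2 subunits Kif3a, Kif3b and Kif3c, which serve axons and cilia, lay close to 1, with ratios of 1.02, 1.13 and 0.941. So did the kinesin-3 motors Kif13a, Kif13b and Kif16b, which carry endosomes and signalling vesicles, at 1.06, 1.03 and 0.847. The differences among axonal kinesins thus lay in Kif5a, Kif5b, Kif1b, Kif1c and Kif21b.

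The light chains of kinesin-1, which bind its cargo, were led by Klc1. It had 684 FPKM in SNL and 978 FPKM in Control, a ratio of 0.6999 that fell short of the limit. Klc4 had 21.4 FPKM in SNL and 15.7 FPKM in Control, a ratio of 1.37. Klc3 stayed under 1 FPKM in all 4 groups, at 0.814 FPKM in SNL and 0.839 FPKM in Control. Kif1bp, a binding protein of kinesins and no motor itself, matched the rule by its name and had 31.2 FPKM in SNL and 39.5 FPKM in Control, a ratio of 0.789.

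**Figure D3:**
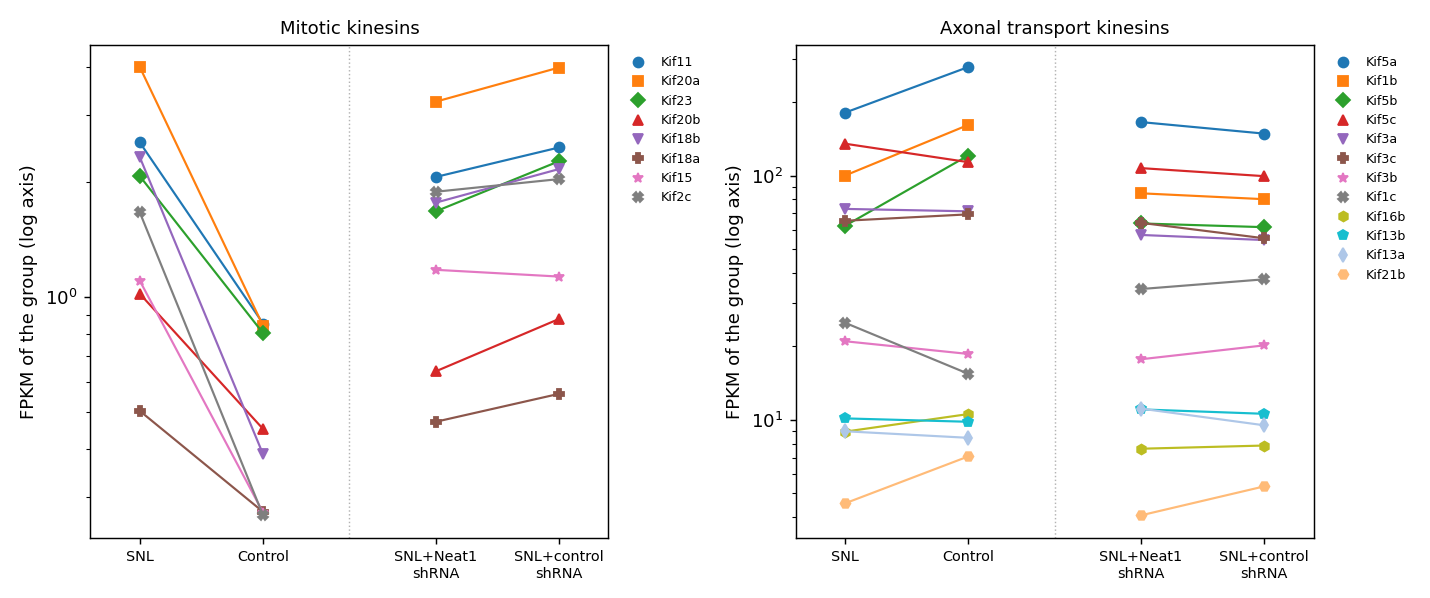
FPKM of the mitotic kinesins (left) and axonal transport kinesins (right) on log axes, in SNL and Control and, right of the dotted line, in the SNL groups labelled Neat1 shRNA and control shRNA, with 1 point per group. All 8 mitotic kinesins drawn have a higher value in SNL than in Control, where all are under 1 FPKM, while the axonal kinesins cross each other at levels between 4.06 and 278 FPKM.

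The mitotic kinesins were 8 rows of low level, all under 1 FPKM in Control. All 7 that counted as measured did so through the SNL group alone, and therefore had to be higher there, so their number is no support for a direction. Kif18a, which dampens chromosome movements, was under 1 FPKM in both groups (0.504 FPKM in SNL and 0.274 FPKM in Control). Kif20a, a motor of cytokinesis, was the most abundant, with 4.002 FPKM in SNL and 0.841 FPKM in Control, a ratio of 4.76. Kif2c, which takes microtubules apart at centromeres, had 1.67 FPKM in SNL and 0.269 FPKM in Control, a ratio of 6.21. Kif18b, which trims astral microtubules, had 2.32 FPKM in SNL and 0.388 FPKM in Control, a ratio of 5.99. Together with the ratio of Tubb6, these 3 were the highest of the measured members.

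Kif11, which pushes the spindle poles apart, had 2.54 FPKM in SNL and 0.853 FPKM in Control, a ratio of 2.98. Kif15, its backup motor, had 1.104 FPKM in SNL and 0.273 FPKM in Control, a ratio of 4.04. Both of these spindle motors were under 1 FPKM in Control. Kif23, part of the central spindle, had 2.07 FPKM in SNL and 0.805 FPKM in Control, a ratio of 2.58. Kif20b, another motor of cytokinesis, had 1.02 FPKM in SNL and 0.452 FPKM in Control, a ratio of 2.26. Kif22, a chromosome arm motor, shares its row with the unrelated gene Maz (96.4 FPKM in SNL and 71.9 FPKM in Control, ratio 1.34), so its own level cannot be read and it was kept out of this group.

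Markers of dividing cells stand beside these values. Of 10 proliferation markers, 9 were higher in SNL and 1 was within the limit, but 4 of the 9 were measured only through the SNL group, so their SNL value had to be the higher one. The list had ratios of 1.38 to 7.55 and a summed level of 74.0 FPKM in SNL and 33.7 FPKM in Control. Pcna, the marker within the limit, held a large part of this sum, with 30.7 FPKM in SNL and 22.2 FPKM in Control. Mki67, the Ki-67 antigen, had 3.396 FPKM in SNL and 0.694 FPKM in Control. Macrophage markers differed too, 7 of 7 measured higher (2 of them measured only through SNL) with a summed level of 210 FPKM in SNL and 39.8 FPKM in Control, as did fibroblast markers, 5 of 5 measured higher with 1686 FPKM in SNL and 695 FPKM in Control. In whole ganglia, fewer cells of a type and less RNA per cell cannot be told apart, and the part of these cell types in the mitotic kinesin values was not tested.

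The promoters of the mitotic kinesins, as genes of one role in the cell cycle, are shown from RefSeq (GRCr8), as a description of their sequence that says nothing of the direction of their levels. The table held 56 of the 68 gene symbols among the members, each with 250 bases before and 50 from the start on, which were searched on both strands for TTTGAA or TTTAAA, the core of the cell cycle genes homology region (CHR), and for CCAAT, the CCAAT box. In human and mouse the CHR is bound by the complex that silences late cell cycle genes in resting cells. The CHR letters were found in 6 of 8 mitotic kinesins (75%) and in 9455 of 33469 promoters (28.3%), against 0 of 9 axonal kinesins and 12 of 56 members (21.4%). The CCAAT letters were found in 4 of 8 mitotic kinesins (50%), in 27 of 56 members (48.2%) and in 12549 of 33469 promoters (37.5%). A match describes the letters and is not a binding site.

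The 6 promoters with CHR letters follow, from 130 bases before the start to 20 bases from it on, 5′ to 3′ on the gene's strand, with CHR and CCAAT letters on either strand in capitals (CCAAT on the other strand reads ATTGG, and TTTGAA reads TTCAAA). The promoter of Tubb6, the tubulin with the highest ratio, is added as one with CCAAT and no CHR letters.
Kif20a, chr18:26504292-26504441, plus strand: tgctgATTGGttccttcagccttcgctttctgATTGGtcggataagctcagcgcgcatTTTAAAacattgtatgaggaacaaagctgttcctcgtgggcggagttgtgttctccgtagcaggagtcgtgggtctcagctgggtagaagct
Kif2c, chr5:135899193-135899342, minus strand: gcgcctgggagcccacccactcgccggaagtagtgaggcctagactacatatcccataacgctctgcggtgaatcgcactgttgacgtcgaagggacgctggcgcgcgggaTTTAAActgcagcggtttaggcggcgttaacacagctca
Kif23, chr8:71320565-71320714, minus strand: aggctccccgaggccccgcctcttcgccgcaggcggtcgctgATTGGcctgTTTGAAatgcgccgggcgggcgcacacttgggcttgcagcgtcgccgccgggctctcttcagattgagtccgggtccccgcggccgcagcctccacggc
Kif11, chr1:244536737-244536886, plus strand: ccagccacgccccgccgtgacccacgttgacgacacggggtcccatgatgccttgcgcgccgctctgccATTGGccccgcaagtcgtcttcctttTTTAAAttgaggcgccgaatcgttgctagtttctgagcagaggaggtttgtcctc
Kif15, chr8:131479274-131479423, plus strand: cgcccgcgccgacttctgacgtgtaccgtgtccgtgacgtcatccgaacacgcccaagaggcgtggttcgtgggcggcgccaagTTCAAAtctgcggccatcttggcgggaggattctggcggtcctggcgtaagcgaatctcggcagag
Kif20b, chr1:241840886-241841035, plus strand: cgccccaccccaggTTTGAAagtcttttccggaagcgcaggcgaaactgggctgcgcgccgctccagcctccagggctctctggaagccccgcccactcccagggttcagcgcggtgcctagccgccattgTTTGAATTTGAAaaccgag
Tubb6, chr18:63213157-63213306, plus strand: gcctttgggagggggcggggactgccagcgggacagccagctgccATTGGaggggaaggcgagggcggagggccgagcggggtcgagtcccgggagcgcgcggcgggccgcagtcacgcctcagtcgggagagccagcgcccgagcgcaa

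In Kif20a the CHR letters began 72 bases before the start, in Kif23 79 and in Kif11 35, each with CCAAT letters farther out in the window. In Kif2c they began 19 bases before the start, and in Kif15 46, with no CCAAT letters in either window. Kif20b held 3 matches, 1 at 116 bases before the start and 2 just after it. Tubb6 held a CCAAT match 85 bases before its start. For comparison, the full AP-1 motif (TGACTCA or TGAGTCA) was found in 1 of 56 members (1.79%) and in 4.63% of all promoters, and the CRE (TGACGTCA) in 6 of 56 members (10.7%) and in 1.83% of all promoters.

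Of the other kinesins 6 were measured, and 5 of them lay within 1.5-fold. Kif19, known in mouse as a motor that limits the length of cilia, had 46.8 FPKM in SNL and 31.2 FPKM in Control, a ratio of 1.502, just inside the called range. It stood at 61.6 FPKM with Neat1 shRNA and 45.9 FPKM with control shRNA, a ratio of 1.34. Kif2a, a microtubule depolymerising kinesin of neurons, had 23.2 FPKM in SNL and 21.2 FPKM in Control, and Kif26b had 3.57 FPKM in SNL and 3.09 FPKM in Control. Kif26a, Kif27 and Kif9 lay under 2 FPKM in both groups, with ratios of 0.761, 0.751 and 0.688, and Kif2b and Kif12 lay near 0.

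Most subunits of cytoplasmic dynein had a ratio below 1, and fewer of them passed the limit. Of the 7 heavy, intermediate and light intermediate chains, 2 were lower, none was higher and 6 had a ratio below 1. Over all measured symbols 16.2% were lower and 19.2% higher. The median log2 ratio of FPKM + 1 of these chains was -0.43 against 0.01 over all symbols. Dync1i1, the intermediate chain of neurons that links the motor to dynactin (chr4:30714857-31028005), had 50.7 FPKM in SNL and 125 FPKM in Control, a ratio of 0.405 (log2 ratio -1.30). Dync1i2, the ubiquitous intermediate chain, had 96.9 FPKM in SNL and 176 FPKM in Control, a ratio of 0.551. Both intermediate chains were past the limit, and Dync1i1 over Dync1i2 was 0.524 in SNL and 0.713 in Control.

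The motor subunit itself differed less. Dync1h1, the heavy chain, had 86.3 FPKM in SNL and 117 FPKM in Control, a ratio of 0.739. Dync1li1, a light intermediate chain that holds cargo adaptors, had 54.8 FPKM in SNL and 77.1 FPKM in Control, a ratio of 0.710, whereas its relative Dync1li2 had 80.6 FPKM in SNL and 75.01 FPKM in Control, a ratio of 1.07. The dynein of cilia, Dync2h1 and Dync2li1, was low, with 1.40 and 8.87 FPKM in SNL and 1.54 and 10.6 FPKM in Control.

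The light chains of dynein were called in both directions, 1 higher and 3 lower of 6 measured. Their median log2 ratio of FPKM + 1 was -0.51, against 0.01 over all symbols. The shares over all measured symbols were 19.2% higher and 16.2% lower. Dynll2, an LC8 light chain, had 209 FPKM in SNL and 395 FPKM in Control, a ratio of 0.530. Its paralogue Dynll1 had 516 FPKM in SNL and 554 FPKM in Control, a ratio of 0.931. The level of Dynll1 over Dynll2 was therefore 2.46 in SNL and 1.40 in Control.

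A second pair of paralogues was called in opposite directions, which left their levels closer in SNL. Dynlt1, a Tctex-type light chain, had 47.3 FPKM in SNL and 25.9 FPKM in Control, a ratio of 1.83, and was the sole higher dynein subunit. Dynlt3, its relative, had 63.5 FPKM in SNL and 105 FPKM in Control, a ratio of 0.602. Dynlt3 over Dynlt1 was 1.34 in SNL and 4.08 in Control. In the shRNA table the pair was nearly level: Dynlt3 had 39.7 FPKM with Neat1 shRNA and 46.7 FPKM with control shRNA, and Dynlt1 had 45.2 FPKM with Neat1 shRNA and 48.3 FPKM with control shRNA.

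Dynlrb1, the main roadblock light chain, had 274 FPKM in SNL and 337 FPKM in Control, a ratio of 0.811. Dynlrb2, its paralogue best known from ciliated cells and testis, had 0.474 FPKM in SNL and 2.21 FPKM in Control. Its ratio of 0.214 (log2 ratio -2.22) was the lowest of all measured members, at a level that passed the filter only through the Control group.

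**Figure D4:**
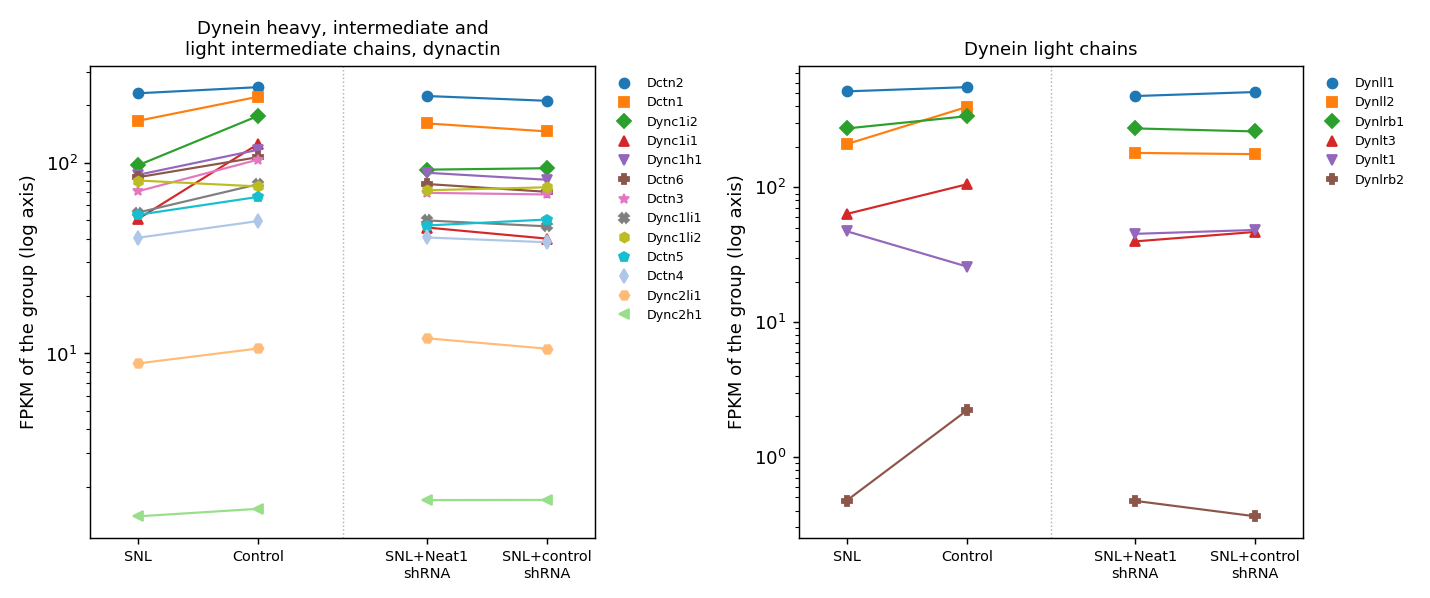
FPKM of the dynein heavy, intermediate and light intermediate chains with the dynactin subunits (left) and of the dynein light chains (right), on log axes, in SNL and Control and, right of the dotted line, in the SNL groups labelled Neat1 shRNA and control shRNA, with 1 point per group. Most lines slope up from SNL to Control, Dynlt1 slopes the other way, and the shRNA lines run nearly level.

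All 6 dynactin subunits had a ratio below 1 and none was past the limit, with ratios of 0.682 to 0.929. Their median log2 ratio of FPKM + 1 was -0.33. Over all symbols it was 0.01, so ratios on either side of 1 were common in the whole table. Of all measured symbols, 16.2% were lower and 19.2% higher. Dctn2, or dynamitin, which holds the complex together, had 231 FPKM in SNL and 248 FPKM in Control. Dctn1, or p150Glued, the subunit that binds the dynein intermediate chain, had 166 FPKM in SNL and 221 FPKM in Control, a ratio of 0.748. Dctn6, a subunit of the pointed end, had 83.8 FPKM in SNL and 107 FPKM in Control, a ratio of 0.785. The lowest ratio belonged to Dctn3, at 70.8 FPKM in SNL and 104 FPKM in Control.

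Neuronal and satellite glia markers also had lower summed levels in SNL. Of 10 neuronal markers, 7 were lower and 3 within the limit in SNL. Their summed level was 4843 FPKM in SNL and 6569 FPKM in Control, a ratio of 0.737. The 2 most abundant markers, both within the limit, weigh most in this sum. Uchl1 stood at 2021 FPKM in SNL and 2305 FPKM in Control. Prph, or peripherin, the 1 marker with a ratio above 1, stood at 1734 FPKM in SNL and 1643 FPKM in Control. The median log2 ratio of FPKM + 1 over the 10 markers was -1.14, a larger difference than that of the sum. Of 6 satellite glia markers 4 were lower and 2 within the limit, with a summed level of 2875 FPKM in SNL and 4385 FPKM in Control, a ratio of 0.656. Most of this sum was Apoe alone, at 2677 FPKM in SNL and 4145 FPKM in Control. Glul, the 1 marker with a ratio above 1, had 141 FPKM in SNL and 122 FPKM in Control. All 6 measured markers of injured neurons were higher (2 of them measured only through SNL), with a summed level of 2340 FPKM in SNL and 264 FPKM in Control. The part of these shifts in the kinesin, tubulin and dynein values was not tested.

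Other genes of microtubules and their motors, outside the naming rule, were read from a list of 71, of which 63 had a row and 62 were measured. In SNL 11 were higher, 10 lower and 41 within 1.5-fold. Over all 11416 measured symbols, 19.2% were higher and 16.2% lower. The genes named below were picked by the size of their ratio from the called ones whose higher group reached 5 FPKM. This minimum left out Vash2, Kifc1 and Tpx2, which were higher in SNL with ratios of 3.55, 3.43 and 3.03. Stmn4, a stathmin that binds tubulin dimers, had 204 FPKM in SNL and 19.4 FPKM in Control, a ratio of 10.5, above that of every measured member. Nde1, a dynein regulator, had 6.12 FPKM in SNL and 3.26 FPKM in Control, a ratio of 1.88. Both were higher, whereas the other 4 named genes of the list were lower.

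Map7, which recruits kinesin-1 to microtubules, had 10.6 FPKM in SNL and 27.0 FPKM in Control, a ratio of 0.395. The axonal microtubule-associated proteins Map1b and Map1a had 329 and 132 FPKM in SNL, against 690 and 246 FPKM in Control, with ratios of 0.477 and 0.537. Kifc2, a minus-end-directed kinesin of neurons, had 11.9 FPKM in SNL and 23.8 FPKM in Control, a ratio of 0.502. These genes were named for the size of their differences, so they do not stand for the list. Among the members, Dync1i1 had a ratio of 0.405, lower than those of Map1b, Map1a and Kifc2.

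The second comparison asked what Neat1 shRNA did in injured ganglia. Neat1, the long noncoding RNA targeted, had 294 FPKM in SNL and 141 FPKM in Control (ratio 2.09), but 374 FPKM in the group labelled Neat1 shRNA and 355 FPKM with control shRNA, a ratio of 1.05. The group with the Neat1 shRNA label thus showed no lower level of the targeted RNA, which limits every direction given here. The study also measured Neat1 by quantitative PCR in rats given these vectors, and those values were not analysed here. In the same table all 7 T and NK cell markers were lower (19.2 FPKM with Neat1 shRNA and 67.7 FPKM with control shRNA), and 3 of 6 myelinating Schwann cell markers were higher, so markers of other cell types differed between these groups.

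None of the 57 measured members was higher or lower by 1.5-fold in the group labelled Neat1 shRNA. Over all 11441 measured symbols, 1.55% were higher and 3.95% lower, so calls were rare in the whole table too. The ratios of the members ran from 0.739 (Kif23, 1.68 FPKM with Neat1 shRNA and 2.27 FPKM with control shRNA) to 1.34 (Kif27, 1.53 FPKM with Neat1 shRNA and 1.14 FPKM with control shRNA). Of the 57, 35 lay within 1.1-fold and 51 within 1.2-fold, and over all symbols 60.8% lay within 1.1-fold. The median log2 ratio of FPKM + 1 was 0.03 over the members and -0.00 over all symbols. A further 9 members were under 1 FPKM in both groups.

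The ratios by role are given beside the shares over all symbols. Of the 6 mitotic kinesins measured here, 5 had a ratio below 1. So did 51.1% of all measured symbols and 67.9% of the symbols higher in SNL, the set to which these kinesins belong. Kif20a had 3.25 FPKM with Neat1 shRNA and 3.99 FPKM with control shRNA, a ratio of 0.814. Kif11 had 2.06 FPKM with Neat1 shRNA and 2.47 FPKM with control shRNA, a ratio of 0.837. The exception was Kif15, at 1.18 FPKM with Neat1 shRNA and 1.13 FPKM with control shRNA. Of 10 proliferation markers 1, Aurkb, was lower by the same rule, and their summed level was 73.7 FPKM with Neat1 shRNA and 85.8 FPKM with control shRNA. Of the 12 axonal kinesins 8 had a ratio above 1 and 4 below 1, against 51.1% of all measured symbols below 1. Kif5a had a ratio of 1.11. Neuronal markers summed to 4469 FPKM with Neat1 shRNA and 4091 FPKM with control shRNA, a ratio of 1.09. With 1 value per group, differences of this size cannot be set against a spread between rats.

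The 2 tables hold different libraries, and the members were set side by side across them with the limit on scale stated above. Of the 13 members higher in SNL that were measured in both tables, all 13 had a control shRNA level above Control, and of the 10 lower in SNL all 10 had one below it. Among the 13 are 6 mitotic kinesins that were under 1 FPKM in Control and entered by reaching 1 FPKM in the shRNA table. Their side of Control was thus set by the filter and supports no direction. Over all symbols the shares were 99.5% of 2110 higher and 97.7% of 1552 lower symbols, so the members shared this with the whole table. Of the same 13 higher members, 10 had a ratio of Neat1 shRNA to control shRNA below 1, against 67.9% of the higher symbols, and of the 10 lower members 3 did, against 31.8% of the lower symbols. These shares are close to those of all symbols.

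In the wider list, 1 of 62 measured genes was lower and none was higher by 1.5-fold in the group labelled Neat1 shRNA. Over all measured symbols 3.95% were lower and 1.55% higher. The lower gene was Tppp, a tubulin polymerisation promoting protein, with 8.35 FPKM with Neat1 shRNA and 12.7 FPKM with control shRNA, a ratio of 0.656. Stmn4 stood at 162 FPKM with Neat1 shRNA and 181 FPKM with control shRNA. Map1b had 256 FPKM with Neat1 shRNA and 214 FPKM with control shRNA.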

How the data were processed

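Polyadenylated RNA of L5 DRG was sequenced from 12 libraries in 4 groups of 3. According to the methods, the authors made stranded libraries, aligned paired reads to rn5 with RefSeq genes, assembled transcripts and computed FPKM with Cufflinks. The same tool and build stand in the submitters' processing notes. In the authors' deposited tables each group has 1 FPKM value, after normalisation for length and depth, with columns of their own comparison (log2 fold change, test statistic, p-value, q-value, significance), which were not used. The tables were assembled and normalised separately, and cover 28578 and 28745 rows, of which 10418 and 10624 have no gene name.

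The members and gene lists were chosen with earlier results of these data known. Rows were matched by symbol (70 and 68 rows), the row with the highest mean FPKM was used per symbol, and joined rows were kept as 1 member. Symbols with FPKM of at least 1 in a group were measured, and those with a ratio of at least 1.5 or at most 1/1.5 were called. Medians are of log2(FPKM + 1), pseudocount 1. No test was run, as there is 1 value per group. Named are the called members (up to 30 per comparison), the 3 highest of each role and up to 6 called genes of the wider list whose higher group reached 5 FPKM. Members named beyond this rule, among them Dctn3, Kif18a, Kif27, Dync1li1 and Tubb4a, were chosen after their values were seen. The motifs were chosen likewise, and Kif2c, which has 2 promoter entries, was read at its first. The Neat1 row is the unnamed row that overlaps most with the position of Neat1 in the authors' supplementary list of candidate long noncoding RNAs. The paper's text gives other coordinates for rat Neat1 on the same chromosome. The SNL and Control values of the row are those that the paper prints for Neat1. Alternatives tried were other FPKM minimums, fold limits and pseudocounts, rescaling to a median log2 ratio of 0, and summing the rows of a symbol. The calling of ratios was tested on simulated data. Python 3.11.15, pandas 2.3.3, numpy 2.4.6 and matplotlib 3.10.9 were used.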

Additional observations from a re-analysis of the deposited data

How the results depend on the processing

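With 1 value per group, leaving out libraries was not possible. No paired analysis was possible because each table holds 1 value per group. The number of members higher in SNL, 14, was 7 at a minimum of 5 FPKM, 7 with 1 FPKM required in both groups (a setting added after seeing the data) and 9 at a fold limit of 2. The first 2 settings remove the mitotic kinesins by construction, and with them the median log2 ratio of the members (-0.10) was -0.23 and -0.22. The number lower in SNL, 12, was 3 at a fold limit of 2 and 23 at 5/4. With Neat1 shRNA, 1 member was higher with no FPKM minimum, and 2 were higher and 2 lower at a fold limit of 5/4. The median of the mitotic kinesins in SNL, 0.93 with a pseudocount of 1, was 1.69 with 0.1. With no FPKM minimum, which lets Kif18a in, it was 0.85. All 7 kinesins behind the value of 0.93 were measured through SNL alone, so its sign was fixed by the filter. Rescaling to a median log2 ratio of 0 took Tubb4b (log2 ratio -0.58) inside the limit and left the calls of the other 89 of 90 named values, and summing the rows of a symbol left all 90. Depth is unknown, so the precision of low values such as the mitotic kinesins cannot be given.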
